A study of Mus musculus with 12 samples.

Results

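The genes followed here are read in brain tissue as marks of astrocytes, and were measured in 12 mice. They were Gfap, Aqp4, Slc1a2, Slc1a3, Aldh1l1, Gja1, Gjb6, Etnppl, Glul and S100b, 10 of the 19312 genes in the deposited table. They were taken by symbol, and all 10 symbols were found. Etnppl was selected on its normalized values in these mice, which were higher in knockouts, so its genotype differences are given as a description without a test. The other 9 were listed by name as astrocyte markers and glutamate uptake genes, with earlier results of these data known. RNA-Seq was run on brains of male C57BL/6N mice at postnatal day 25, 3 mice in each of 4 groups. WT-Veh mice were wild types given vehicle, WT-Mem mice were wild types given memantine, and KO-Veh and KO-Mem mice lacked exons 6 and 7 on both Shank2 alleles and received vehicle or memantine. Memantine, a blocker of the open NMDA receptor channel, was given by mouth at 20 mg/kg, with 2 doses a day between postnatal days 7 and 21, in the 0.1% saccharin that also served as vehicle, so every mouse received saccharin and no mouse was left undosed. The sample labels name whole brain, and the study's methods name forebrain without cerebellum and brain stem.

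Astrocytes are the glial cells that surround synapses and blood vessels. They take up synaptic glutamate through the transporters encoded by Slc1a3 (GLAST) and Slc1a2 (GLT-1), and glutamine synthetase, the product of Glul, turns it into glutamine for return to neurons. They pass water through aquaporin-4 (Aqp4), which is concentrated in the endfeet on vessels, and form a coupled network through connexin 43 (Gja1) and connexin 30 (Gjb6). Gfap encodes an intermediate filament protein, S100b a calcium-binding protein that is also found in some oligodendrocyte lineage cells, and Aldh1l1 an enzyme of folate metabolism. Etnppl encodes ethanolamine-phosphate phospho-lyase, which breaks down phosphoethanolamine, an intermediate of phospholipid synthesis.

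The values are estimated counts that the authors divided by normalization factors, so a value is comparable between mice for a gene; column sums ran from 30373849 to 31199251. Shank2 itself read 7156 to 8548 in the WT mice and 2706 to 3178 in the KO mice, lower in every KO mouse. The library KO-Veh replicate 3 stood apart by cerebellar genes: the Purkinje cell gene Pcp2 read 380 there and at most 21.5 in the other mice, and the granule cell receptor gene Gabra6 read 254 there and at most 12.9 elsewhere. The main differences and the list and marker counts that use it are also given without it. The 10 astrocyte genes were well above the low end of the table in every mouse, the smallest value being 597 for Etnppl in WT-Veh replicate 2.

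Per kilobase of annotated exon, the only scale on which levels of different genes are compared here, Glul was highest in WT-Veh mice, at 11898 ± 840 per kb (SD, n = 3), followed by Slc1a2 at 5773 ± 158 per kb. S100b (1952 ± 265 per kb), Slc1a3 (1735 ± 62.6 per kb) and Gfap (1637 ± 155 per kb) came next, and the ranges of these 3 overlapped. Aqp4, Gja1 and Gjb6 stood at 683, 587 and 572 per kb; the ranges of Aqp4 and Gja1 overlapped narrowly and those of Gja1 and Gjb6 broadly. Aldh1l1 followed at 455 ± 11.4 per kb. Etnppl was the lowest of the 10 by level, at 93.6 ± 19.1 per kb, below the lowest Aldh1l1 mouse. The exon lengths are unions over all annotated transcripts, so this order is approximate. No other gene overlaps exons of Etnppl, Aqp4, S100b, Gja1, Gjb6, Gfap or Slc1a3 in GENCODE M21. Glul shares 116 exonic bases with Teddm2 on the opposite strand, and the study's methods do not say if the libraries keep the strand. Aldh1l1 shares exonic bases with Gm15756 (499) and Gm45901 (105), and Slc1a2 with Gm13872 (189), genes that the deposited table does not hold. Stretches of sequence are also shared between Glul and its pseudogene Glns-ps1, between Slc1a2 and the predicted genes Gm11027 and Gm10217, and between Gja1 and Gm10217, so reads of Glul, Slc1a2 and Gja1 may have been split.

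The gene of the phospho-lyase, Etnppl (ENSMUSG00000019232), lies on chromosome 3, GRCm38 chr3:130617448-130637521, plus strand. Gja1 (ENSMUSG00000050953) lies at chr10:56377330-56402513, and S100b (ENSMUSG00000033208) at chr10:76253853-76261159, both on the plus strand. These 3 genes are shown by the 250 bases before their RefSeq start (GRCm38.p6), because Etnppl read higher and Gja1 and S100b read lower in the same KO mice. The windows are chr3:130617198-130617447 for the first of the 2 RefSeq starts of Etnppl, chr10:56377050-56377299 for Gja1 and chr10:76253586-76253835 for S100b. Capitals mark matches on either strand to CANNTG, the E-box, and to TTGGC, the half-site of nuclear factor I, a factor family of astrocyte development.
Etnppl: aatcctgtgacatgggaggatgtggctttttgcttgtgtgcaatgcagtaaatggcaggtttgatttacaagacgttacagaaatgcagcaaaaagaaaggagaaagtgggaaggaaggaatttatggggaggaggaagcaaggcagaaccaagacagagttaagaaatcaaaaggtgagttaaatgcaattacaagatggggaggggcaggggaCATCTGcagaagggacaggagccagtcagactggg
Gja1: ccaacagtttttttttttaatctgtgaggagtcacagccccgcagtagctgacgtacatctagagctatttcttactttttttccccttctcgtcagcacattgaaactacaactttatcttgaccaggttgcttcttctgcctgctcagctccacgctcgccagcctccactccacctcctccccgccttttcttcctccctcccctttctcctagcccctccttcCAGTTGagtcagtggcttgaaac
S100b: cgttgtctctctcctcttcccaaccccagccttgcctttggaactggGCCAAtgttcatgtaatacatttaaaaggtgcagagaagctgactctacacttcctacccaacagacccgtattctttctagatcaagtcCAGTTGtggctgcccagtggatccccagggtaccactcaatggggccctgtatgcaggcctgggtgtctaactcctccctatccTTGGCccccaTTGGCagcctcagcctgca

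Each of the 3 windows held 1 E-box, a motif present in 66.2% of 32851 RefSeq promoter windows of the same length. S100b held 3 nuclear factor I half-sites, and Etnppl and Gja1 held none; 41.5% of all windows hold at least 1. Neither TTCNNNGAA, the STAT motif (7.02% of all windows), nor ACAAT, the SOX core (27.7%), was found in these 3 windows. Among the other members with a window, TTGGC was found upstream of Slc1a2, Glul and the second start of Etnppl, and TTCNNNGAA and ACAAT upstream of Slc1a3. Windows were matched for 9 of the 10 genes. A match of a few letters is a description of the window.

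Etnppl was higher in KO mice under both treatments. In WT-Veh mice it read 822, 597 and 901, and in KO-Veh mice 1281, 1172 and 1475. Among memantine-treated mice it read 899, 933 and 941 in the WT and 1811, 1624 and 1195 in the KO group. Every KO mouse was above every WT mouse, with KO-Mem replicate 3 nearest to the WT mice among memantine-treated knockouts. The group means were 773 ± 158 for WT-Veh, 924 ± 22.3 for WT-Mem, 1309 ± 154 for KO-Veh and 1543 ± 316 for KO-Mem (SD, n = 3). On the log2(value + 1) scale the KO minus WT difference was 0.77 under vehicle (SE 0.14) and 0.72 under memantine (SE 0.13), which are folds of 1.71 and 1.645. Without KO-Veh replicate 3 the vehicle difference was 0.68. These are the values for which the gene was listed, and values of KO and WT mice without overlap were found for 20.4% of 17671 genes under vehicle, 26.2% under memantine and 4.06% over both treatments.

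**Figure D1:**
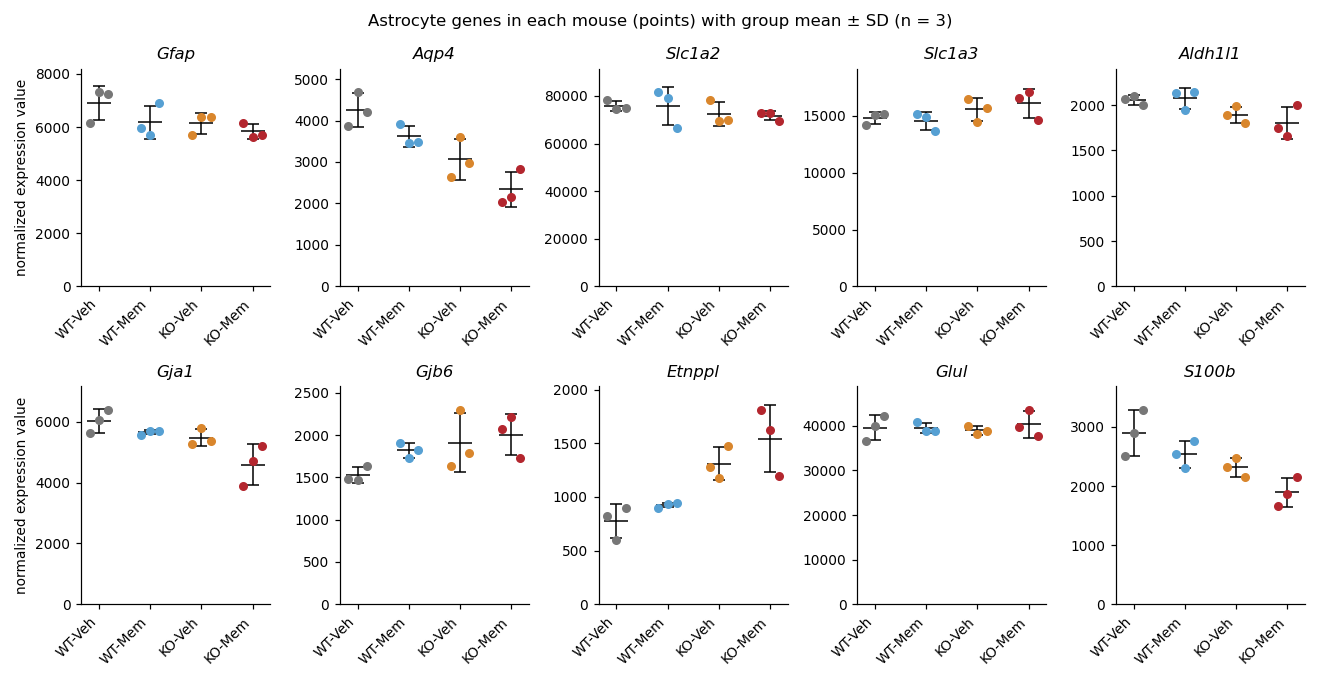
Normalized expression value (y axis, from 0) of each of the 10 astrocyte genes in each mouse, by group (x axis); points are mice and the bars show the mean ± SD of 3 mice. The mean of Etnppl goes from 773 in WT-Veh to 1543 in KO-Mem mice and that of Aqp4 from 4258 to 2336.5, while the points of Slc1a2 and Glul overlap between groups.

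No memantine difference of Etnppl passed the test in either genotype. The KO-Mem minus KO-Veh difference was 0.22 on the log2 scale (SE 0.15, adjusted p = 0.635 by limma; 0.31 without KO-Veh replicate 3) with overlapping values, and the WT-Mem minus WT-Veh difference was 0.28 (SE 0.14, adjusted p = 0.978), also with overlap. Over both genotypes, 6 mice against 6, memantine-treated mice were 0.25 higher on the log2 scale (95% interval 0.02 to 0.48, unadjusted p = 0.0332 and adjusted p = 0.536 by limma). The interaction, which asks if the genotype difference depended on treatment, was -0.06 with a 95% interval of -0.53 to 0.42 (adjusted p = 0.987 by limma), wide enough to hold a difference in either direction, and it was 0.03 without KO-Veh replicate 3.

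In whole tissue, fewer astrocytes and less RNA per astrocyte cannot be told apart. Etnppl was also set against the other 9 genes of the same mouse, which does not separate these and which carries over the values Etnppl was selected on. The mean log2 value of those 9 was subtracted from that of Etnppl. This difference was -3.093, -3.665 and -3.102 in WT-Veh mice, -3.041, -2.906 and -2.935 in WT-Mem mice, -2.396, -2.634 and -2.199 in KO-Veh mice, and -1.781, -2.004 and -2.465 in KO-Mem mice. The lowest KO mice on this relative scale were KO-Veh replicate 2 and KO-Mem replicate 3. The genotype difference was 0.88 under either treatment, larger than that of Etnppl alone because the mean of the other 9 was 0.10 (vehicle) and 0.16 (memantine) lower in KO mice. The memantine difference on this scale was 0.33 in both genotypes, with overlapping values in KO mice and without overlap in WT mice. In WT mice it leaned on WT-Veh replicate 2 (-3.665). The other WT-Veh mice (-3.093 and -3.102) were close to the lowest WT-Mem mouse (-3.041). For Etnppl alone, the WT memantine difference ran from 0.10 to 0.40 on leaving out 1 mouse.

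**Figure D2:**
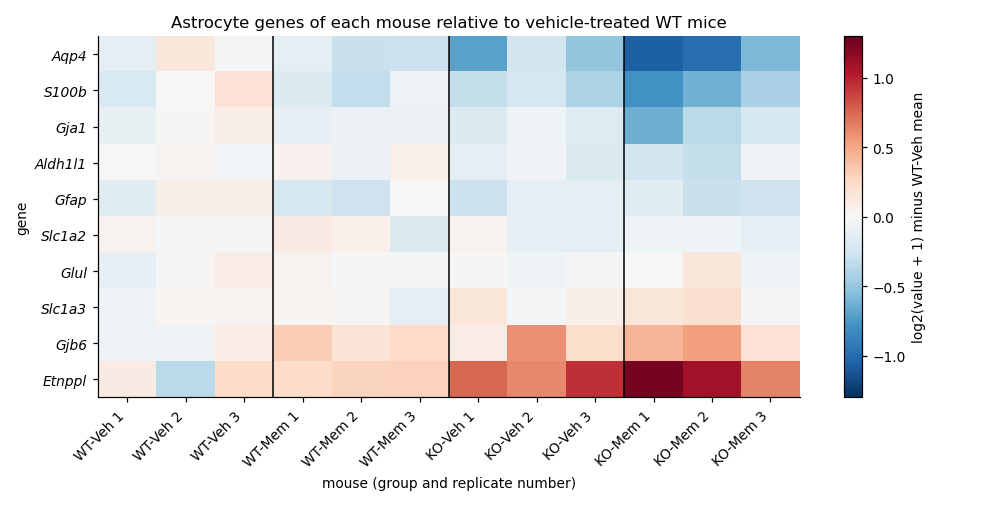
Each cell gives log2(value + 1) of a gene (rows) in a mouse (columns, 3 per group, separated by lines) minus the mean of the 3 WT-Veh mice, from blue (lower) to red (higher). Etnppl is red in all 6 KO mice while Aqp4, S100b and Gja1 are blue in them, most in KO-Mem replicates 1 and 2, and KO-Mem replicate 3 is closer to the KO-Veh mice.

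Of the other 9 genes, 3 were lower in KO mice when both treatments were fitted together, and none was higher by the test. They were Aqp4, S100b and Gja1. In that fit, with 6 KO against 6 WT mice and treatment as a term, 1907 of 17655 genes passed an adjusted p of 0.05 (10.8%), 863 higher (4.89%) and 1044 lower (5.91%), so 3 of 9 is read against that background. Both counts moved when 1 mouse was left out. The count over all genes was 694 without KO-Veh replicate 3, 801 and 807 without KO-Mem replicates 1 and 2, 967, 1182 and 1072 without WT-Mem replicates 1, 2 and 3, 1091 without WT-Veh replicate 2, and at most 2683, without KO-Mem replicate 3. The count among the 9 was 2 in each of these fits but the last, where it was 5. At an unadjusted p under 0.05, 6 of the 9 passed, against 29.5% of all genes, 2 higher (Gjb6 and Slc1a3) and 4 lower. The median log2 difference of the 9 genes was -0.12, and that of all genes tested was 0.0035.

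Aqp4 (ENSMUSG00000024411, on chromosome 18), the water channel, read 3875, 4690 and 4209 in WT-Veh mice and 2627, 3595 and 2971 in KO-Veh mice. With memantine it read 3918, 3462 and 3489 in WT and 2036, 2148 and 2826 in KO mice. KO and WT mice did not overlap under either treatment, and over all 12 mice the ranges overlapped through KO-Veh replicate 2. Over both treatments Aqp4 was lower by a log2 difference of -0.56 (SE 0.09, 95% interval -0.75 to -0.37, adjusted p = 0.00516 by limma), a fold of 0.677. The difference was -0.48 under vehicle (SE 0.11, adjusted p = 0.151) and -0.65 under memantine (SE 0.12, adjusted p = 0.0884), neither past the threshold with 3 mice against 3. Without KO-Mem replicate 3 the memantine difference was -0.79 and passed (adjusted p = 0.00163), and without KO-Veh replicate 2 the vehicle difference was -0.60 and passed (adjusted p = 0.0463). Without KO-Veh replicate 3, the library with cerebellar genes, the difference was -0.57 over both treatments, still called, and -0.47 under vehicle, and over all 18 alternatives its adjusted p ran from 0.00129 to 0.0182.

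S100b, the calcium-binding protein gene, read 2502, 2898 and 3290 in WT-Veh mice and 2320, 2479 and 2161 in KO-Veh mice. It read 2541, 2306 and 2759 in WT-Mem mice and 1665, 1870 and 2148 in KO-Mem mice. All KO mice were below all WT mice of the same treatment, narrowly under vehicle. Over both treatments the log2 difference was -0.37 (SE 0.08, adjusted p = 0.0118 by limma), a fold of 0.774, and it passed under each of 18 alternatives. Without KO-Veh replicate 3 it was -0.35 over both treatments and -0.26 under vehicle. Under vehicle alone it was -0.31 (adjusted p = 0.219) and under memantine alone -0.42 (adjusted p = 0.0957), the latter passing without KO-Mem replicate 3 (-0.52, adjusted p = 0.0118). Summed oligodendrocyte markers, of a lineage that also holds S100b, were lower in KO mice too, with the values given at the end, and their part in the S100b difference was not tested.

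Gja1, the connexin 43 gene, read 5614, 6053 and 6389 in WT-Veh mice and 5265, 5789 and 5353 in KO-Veh mice, which overlap. It read 5567, 5691 and 5700 in WT-Mem mice and 3876, 4699 and 5196 in KO-Mem mice, all lower than the WT-Mem mice. Over both treatments the log2 difference was -0.22 (SE 0.06, adjusted p = 0.0389 by limma), a fold of 0.856. This call was close to the threshold: it was lost in 9 of the 12 fits that leave out 1 mouse, KO-Veh replicate 3 among them, with adjusted p up to 0.077. The other connexin of the list, Gjb6, went the other way by value: WT-Veh mice read 1475, 1474 and 1636, WT-Mem mice 1900, 1728 and 1827, KO-Veh mice 1634, 2298 and 1793, and KO-Mem mice 2069, 2208 and 1734. Its log2 difference over both treatments was 0.22 (SE 0.08, adjusted p = 0.0882 by limma), past the threshold only without KO-Mem replicate 3 (0.27, adjusted p = 0.0273). The values of these astrocyte connexins differed in sign, and the difference between the 2 genes was not tested.

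None of the 3 genes of glutamate handling passed the genotype test. Slc1a2, the GLT-1 gene, ran from 74403 to 78201 with vehicle and 66651 to 81685 with memantine in WT mice, and from 69373 to 78372 and 69364 to 72964 in KO mice, with overlap in every comparison. Its log2 difference over both treatments was -0.07 (95% interval -0.18 to 0.04, adjusted p = 0.374 by limma). Slc1a3, the GLAST gene, read 14198 to 15171, 13658 to 15125, 14503 to 16526 and 14664 to 17112 in the same order, a difference of 0.11 (interval 0.0033 to 0.21, adjusted p = 0.157 by limma). Glul read 36562 to 42099, 38863 to 40744, 38055 to 39932 and 37755 to 43576, a difference of 0.0043 (interval -0.09 to 0.10, adjusted p = 0.962 by limma), so a genotype difference of more than 0.10 on the log2 scale is outside its interval. Gfap, in the same order of groups, ran 6155 to 7323, 5718 to 6888, 5685 to 6371 and 5637 to 6165 (difference -0.12, adjusted p = 0.173 by limma). Aldh1l1 read 1999 to 2100, 1944 to 2145, 1805 to 1985 and 1662 to 1995 (difference -0.16, adjusted p = 0.0569 by limma), all KO-Veh mice being below all WT-Veh mice, and it passed without KO-Mem replicate 3 (-0.19, adjusted p = 0.0252) and without KO-Veh replicate 2 (-0.18, adjusted p = 0.0436).

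**Figure D3:**
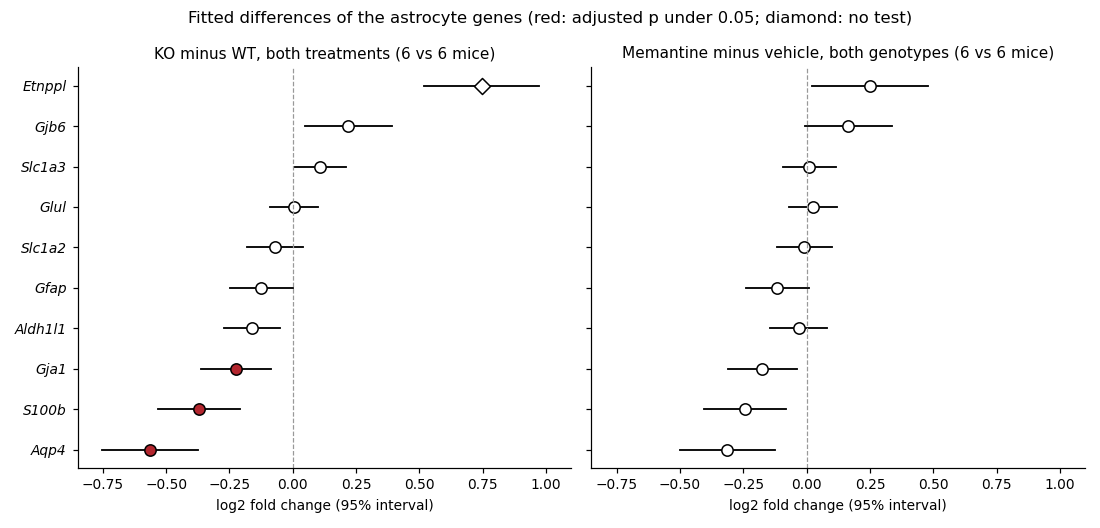
Fitted log2 differences (x axis) with 95% intervals for the 10 genes (y axis), KO minus WT on the left and memantine minus vehicle on the right, 6 mice against 6 in each. Aqp4 (-0.56), S100b (-0.37) and Gja1 (-0.22) are filled in red as past an adjusted p of 0.05, the Etnppl genotype difference (0.75) is a diamond without a test, and no gene is filled on the right.

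With 3 mice against 3, none of the 9 genes passed the adjusted threshold in Veh-K/W (KO-Veh against WT-Veh) or Mem-K/W (KO-Mem against WT-Mem). Few genes of the whole table did: 5 of 17671 (0.0283%) under vehicle and 12 of 17646 (0.068%) under memantine by limma. The paper, with DESeq2 and the same threshold on the adjusted p, called more genes in both comparisons. The vehicle count was 53 without KO-Veh replicate 2, 8 without WT-Veh replicate 1 and 2 without KO-Veh replicate 1 or 3. At an unadjusted p under 0.05 the numbers among the 9 were 3 under vehicle (Gjb6 higher, Aqp4 and S100b lower) and 4 under memantine (Aqp4, S100b, Gja1 and Aldh1l1, all lower), against 14.4% and 21% of all genes. Leaving out KO-Mem replicate 3 raised the number of genes called under memantine from 12 to 1911 and the number among the 9 from 0 to 3, and leaving out other mice gave 2 to 9 genes and no member, with 6 without WT-Mem replicate 2 or KO-Mem replicate 1 and 2 without KO-Mem replicate 2. With all 12 mice in one fit, that mouse included, 636 genes and 2 members passed. None of the genes had an interaction past the threshold, nor did any gene of the table (0 of 17655, 0%; 840 at an unadjusted p under 0.05, 4.76%, none of them among the 10). The interaction was -0.16 for Aqp4 (95% interval -0.55 to 0.22), -0.11 for S100b (-0.44 to 0.22) and -0.17 for Gja1 (-0.44 to 0.09), so at this number of mice the genotype difference is not shown to depend on treatment.

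Memantine against vehicle asks what chronic dosing changed within a genotype. No member passed the adjusted threshold in KO mice (KO-M/V), where no gene of 17707 did (0%) and 1573 had an unadjusted p under 0.05 (8.88%). No member passed in WT mice (WT-M/V) either, where 2 of 17564 genes did (0.0114%) and 697 were under 0.05 unadjusted (3.97%), nor over both genotypes, where no gene of 17655 passed (0%) and 1519 were under 0.05 unadjusted (8.6%). By value, Aqp4, S100b and Gja1 were lower after memantine in KO mice, with log2 differences of -0.39, -0.30 and -0.26 (unadjusted p = 0.0195, 0.012 and 0.0245, adjusted p = 0.554 for each by limma). Without KO-Veh replicate 3 they were -0.41, -0.35 and -0.28. S100b and Gja1 did so without overlap between KO-Mem and KO-Veh mice, as 13.9% of all genes did. In WT mice the corresponding differences were -0.23, -0.19 and -0.09 (unadjusted p = 0.0222, 0.106 and 0.217, adjusted p = 0.978 for each by limma), each with overlap, and Gjb6 was 0.25 higher without overlap (unadjusted p = 0.00778, adjusted p = 0.978 by limma), as 9.34% of all genes were without overlap in either direction. Over both genotypes the values were -0.31 for Aqp4 (adjusted p = 0.416), -0.24 for S100b (0.437) and -0.18 for Gja1 (0.497) by limma. Most summed markers of other cells were lower by mean after memantine too. Higher means were those of endothelial markers in KO mice (5413 with vehicle, 5558 with memantine) and of 2 sums in WT mice. These were the neuron (208835 and 216944) and oligodendrocyte precursor markers (9006 and 9148). The mean of the summed oligodendrocyte markers was 292879 in KO-Veh and 259552 in KO-Mem mice, and 357778 in WT-Veh and 315729 in WT-Mem mice. All 6 oligodendrocyte markers were lower in both genotypes, 5 of them at an unadjusted p under 0.05 in KO and 0 in WT mice, and none passed the adjusted threshold. The summed blood markers averaged 20241 in WT-Veh and 13019 in WT-Mem mice, and 12657 and 8040 in the KO groups. Their part in the astrocyte values was not tested. KO-M/V shares the KO-Veh mice with Veh-K/W, and WT-M/V shares the WT-Veh mice with it.

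The level of Etnppl across the 12 mice ran against that of several other members. Over all 12 mice, and so including the group differences, Pearson's r of the log2 values of Etnppl was -0.93 with Aqp4, -0.85 with Aldh1l1, -0.83 with S100b and -0.80 with Gja1, and 0.68 with Gjb6. With each value taken relative to its group mean, r was -0.75 with Aqp4, -0.71 with Aldh1l1, -0.56 with Gja1, -0.41 with S100b and 0.25 with Gjb6. Gja1 and S100b went together, with r = 0.93 over the 12 mice and 0.81 within groups, and Aqp4 went with both (0.90 and 0.91 over the 12 mice). Each pair of values comes from the same library, so these are descriptions. Every r of Etnppl over the 12 mice, and the order of likeness below, also carries the genotype values that Etnppl was selected on. Among 12876 other genes with a mean of at least 100, no member was near the top of the order of likeness to Etnppl: Gjb6 ranked 1500th and Slc1a3 1703rd, while Aqp4 ranked 12825th. The 10 genes most like Etnppl over the 12 mice were Rev3l (r = 0.97), the catalytic subunit of DNA polymerase zeta, Rbm3 (0.97), a cold-inducible RNA-binding protein, Gm49492, Acox3, Prrt4, 5730455P16Rik, Pla2g4e, Rnf170, Erlec1 and Grik4, down to r = 0.95. All 10 had higher means in KO than in WT mice under both treatments, as the selection of Etnppl makes likely. Rbm3 averaged 2086 ± 399.8 with vehicle and 2437 ± 339 with memantine in WT mice, and 3171 ± 390.1 and 3765 ± 434 in KO mice (SD, n = 3). Within groups the closest genes were Pla2g3 (r = 0.98), Khdc4, Frmpd1, Sun2, Kcnt1, Tspoap1, Sspo, Rbmx2, Ppp1r3f and Gigyf1 (0.93), none of which was among the first 10.

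Around these genes, 6 lists of related genes were read in the genotype fit over both treatments, where 10.8% of all genes were called. Of 30 further astrocyte identity genes, 11 were lower in KO mice and 1 was higher, with a median log2 difference of -0.12 beside 0.0035 over all genes. The lower ones included Mfge8 (-0.51), which encodes a secreted bridging protein for phagocytosis, Slc7a10 (-0.36), an amino acid exchanger for D-serine and glycine, Pla2g7 (-0.35), Acsbg1 (-0.33), an acyl-CoA synthetase, and the neurotensin receptor gene Ntsr2 (-0.30), with Gpr37l1 (-0.28), Mlc1 (-0.22), Mt3 (-0.19), Cst3 (-0.17) and Ndrg2 (-0.15). Acsbg1 read 4193 to 4712 in the 6 WT mice and 3038 to 4035 in the 6 KO mice, without overlap. The higher one was Fgfr3 (0.19), a fibroblast growth factor receptor. The count of called genes in this list was 6 without KO-Veh replicate 3 (694 of 17634 genes called in all) or KO-Mem replicate 1 (801 of 17638). It was 7 without WT-Veh replicate 2 (1091 of 17655), WT-Mem replicate 1 (967 of 17662), WT-Mem replicate 2 (1182 of 17664) or KO-Mem replicate 2 (807 of 17647). The counts over all genes fell in these fits too. None of the 30 passed in Veh-K/W, where Acsbg1 (-0.31) and Pla2g7 (-0.32) had the smallest p, in Mem-K/W, where Mfge8 (-0.68) and Acsbg1 (-0.35) did, or in KO-M/V, where Fgfr3 (0.21) and Gpr37l1 (-0.25) did, or in WT-M/V (Ndrg2 -0.19 and Slc7a10 -0.20).

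Of 20 genes of the glutamate and glutamine cycle beyond the members, 4 were called in the genotype fit, beside 10.8% of all genes. Slc1a6, the neuronal transporter EAAT4, was higher (0.42), and Slc38a3, the glutamine exporter of astrocytes (-0.21), Gpt, alanine aminotransferase (-0.35), and Grm3, a metabotropic glutamate receptor (-0.31), were lower. Slc1a6, which is abundant in Purkinje cells, read 304 to 396 in WT mice and 403 to 560 in KO mice, its highest value being that of KO-Veh replicate 3, the library with cerebellar markers. The other KO mice read 403 to 466, still above every WT mouse. Without that library 1 gene of the list was called, where 694 of 17634 genes were called in all. The count was also 1 without WT-Mem replicate 1 (967 genes in all), KO-Mem replicate 1 (801) or KO-Mem replicate 2 (807). It was 2 without WT-Veh replicate 2 (1091), WT-Mem replicate 2 (1182) or WT-Mem replicate 3 (1072). In the pairwise fits none passed; the smallest p belonged to Slc1a6 (0.54) and Gls2 (-0.36) in Veh-K/W, Gpt (-0.56) and Slc17a8 (-0.53) in Mem-K/W, Gpt (-0.46) and Grm3 (-0.35) in KO-M/V, and Gls2 (-0.29) and Slc17a7 (0.16) in WT-M/V.

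Of 14 potassium, water and endfoot genes, 4 were called, beside 10.8% of all genes. Kcnj10, the inward rectifier Kir4.1 that takes up potassium, was lower (-0.39, adjusted p = 0.00773 by limma): it read 8564 to 9815 in WT mice and 5511 to 8218 in KO mice, without overlap. Car2, a carbonic anhydrase gene (-0.55), and Utrn, the utrophin gene (-0.21), were lower too. Agt, angiotensinogen, was higher (0.60, adjusted p = 0.0149 by limma), with 1490, 1546 and 1753 (WT-Veh), 1550, 1676 and 2326 (WT-Mem), 2211, 1954 and 2650 (KO-Veh), and 3752, 3280 and 2112 (KO-Mem), so that the memantine groups overlapped. Of the dystrophin complex that anchors aquaporin-4 in the endfoot, Dag1, Dtna and Dmd, looked up after the values were seen, were not called. In the pairwise fits Agt (0.50) and Car2 (-0.50) had the smallest p in Veh-K/W, Kcnj10 (-0.48) and Agt (0.70) in Mem-K/W, Kcnj10 (-0.29) and Utrn (-0.17) in KO-M/V, and Car2 (-0.25) and Kcnj10 (-0.11) in WT-M/V, none past the threshold. The count in the genotype fit was also 4 without KO-Veh replicate 3, where 694 of 17634 genes were called in all.

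Of 10 tested connexins and pannexins, 3 were lower and none was higher, beside 5.91% of all genes lower and 4.89% higher. Without KO-Veh replicate 3, where 694 of 17634 genes were called in all, 2 were lower. The 3 lower genes of the full fit included Gjb1 (-0.61), which encodes connexin 32 of oligodendrocytes, and Panx2 (-0.24), which encodes a pannexin. Gjb1 read 353 to 665 in WT mice and 199.7 to 401 in KO mice, with overlap. No gene of this list passed in the pairwise fits, where Gjb1 differed by -0.53 on the log2 scale between the genotypes under vehicle and, for memantine against vehicle, by -0.56 in KO and -0.39 in WT mice. The difference of Panx2 was -0.29 in Mem-K/W and that of Gjb2 was -0.39 in WT-M/V.

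Among the metabolic partners of Etnppl few passed the test. Of 20 genes of phosphoethanolamine and ethanolamine metabolism, 1 was called, beside 10.8% of all genes. It was Cept1, the choline and ethanolamine phosphotransferase (-0.28), and its call was lost in 9 of the 12 fits that leave out 1 mouse. The median log2 difference was -0.0046. Phykpl, Etnk1, Etnk2 and Pcyt2 were singled out after the values were seen. Phykpl, the paralogue of Etnppl that acts on phosphohydroxylysine, read 239 to 294 in WT mice and 221 to 340 in KO mice (difference -0.01). The ethanolamine kinase genes Etnk1 (0.0010) and Etnk2 (-0.22) and the gene of the next enzyme of the pathway, Pcyt2 (-0.14), which make and use phosphoethanolamine, were not called, and Sgpl1, the lyase that releases it from sphingolipids, was not called (0.20, adjusted p = 0.0748 by limma). In the pairwise fits Cept1 (-0.30) and Gpcpd1 (0.20) had the smallest p in Veh-K/W, Sgpl1 (0.31) and Chkb (0.24) in Mem-K/W, Faah (0.16) and Gpcpd1 (-0.17) in KO-M/V, and Gpcpd1 (0.19) and Cept1 (-0.18) in WT-M/V, none past the threshold.

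Of 33 tested genes that are raised in reactive astrocytes, 3 were called, no more than the 10.8% over all genes. Of these, 2 were higher (Fkbp5 0.65, Serpina3n 0.36) and Hspb1, a small heat shock protein gene, was lower (-0.45). Fkbp5, a glucocorticoid-responsive chaperone gene, had values of 1147, 888 and 1196 (WT-Veh), 1551, 1280 and 1469 (WT-Mem), 1422, 1578 and 1770 (KO-Veh), and 3313, 2269 and 1790 (KO-Mem), the memantine values lying above the vehicle values within each genotype and the genotypes overlapping through WT-Mem and KO-Veh mice. The count was 1 in 6 of the fits that leave out 1 mouse (WT-Veh replicates 1 and 2, WT-Mem replicate 3, KO-Veh replicates 1 and 3, KO-Mem replicate 1) and 5 without KO-Mem replicate 3. In that order these fits called 1923, 1091, 1072, 1367, 694, 801 and 2683 genes in all. Lcn2, a lipocalin that rises in reactive astrocytes, was low, at 3.49 to 19.5 in the other 3 groups and 44.8 to 48.7 in KO-Mem mice, without overlap; its log2 difference was 2.05 in Mem-K/W (adjusted p = 0.0817) and 2.53 in KO-M/V (adjusted p = 0.554), neither past the threshold by limma. Gfap was not called. In the pairwise fits Hspb1 (-0.70) and Fkbp5 (0.57) had the smallest p in Veh-K/W, Fkbp5 was also second in Mem-K/W (0.73) and KO-M/V (0.59) and first in WT-M/V (0.42), and Serping1 followed there (-0.38).

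**Figure D4:**
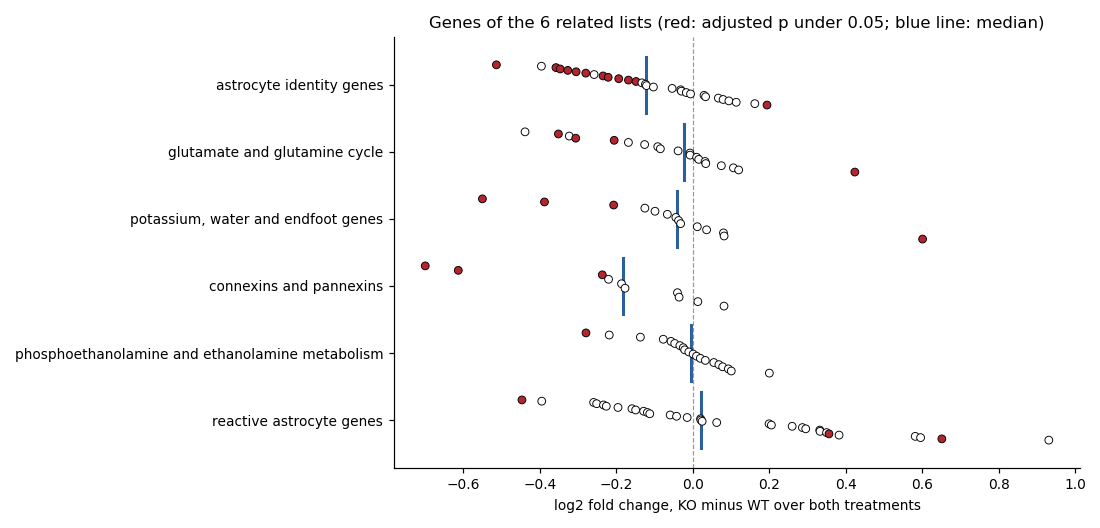
Log2 difference KO minus WT over both treatments (x axis) of each tested gene of the 6 lists (y axis); filled points passed an adjusted p of 0.05 and the blue line is the list's median. Most filled points of the astrocyte identity list lie left of 0, its median is -0.12, and the phosphoethanolamine list is centred near 0 with 1 filled point.

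Some markers of other cells moved with genotype too, and their part in the astrocyte differences was not tested. In the genotype fit 10.8% of all genes were called, 4.89% higher and 5.91% lower. Lower in KO mice were 5 of 6 oligodendrocyte, 4 of 5 endothelial, 2 of 3 mural and 3 of 3 blood markers. So were 1 of 5 microglial and 1 of 3 oligodendrocyte precursor markers. Of 8 neuron markers 1, Gad2, was higher (0.19). None of 5 ependymal and choroid plexus, 3 meningeal or 4 cerebellar markers was called. Without KO-Veh replicate 3, a fit added for the markers after the data were seen, the counts were 5 oligodendrocyte, 0 endothelial, 2 mural, 2 blood, 0 microglial, 1 oligodendrocyte precursor and 0 neuron markers. That fit called 694 of 17634 genes in all. The summed oligodendrocyte markers ran from 294380 to 407701 in WT mice and from 237444 to 305397 in KO mice. The summed endothelial markers ran from 5734 to 6667 in WT and 5239 to 5879 in KO mice, and the summed blood markers, 3 haemoglobin genes, from 12314 to 24485 in WT and 5421 to 17413 in KO mice. Over both treatments these ranges overlapped between the genotypes, as did those of the summed neuron markers, 193725 to 221379 in WT and 206748 to 214636 in KO mice. Within each treatment the oligodendrocyte and blood sums of KO mice were below those of WT mice without overlap. Endothelial sums were so under vehicle only, and neuron sums overlapped under both treatments. Single genes were without overlap in 20.4% of cases under vehicle and 26.2% under memantine. No defining marker was at 0 in any mouse except Gabra6 of the cerebellum, which was listed at 0 in 6.

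**Figure D5:**
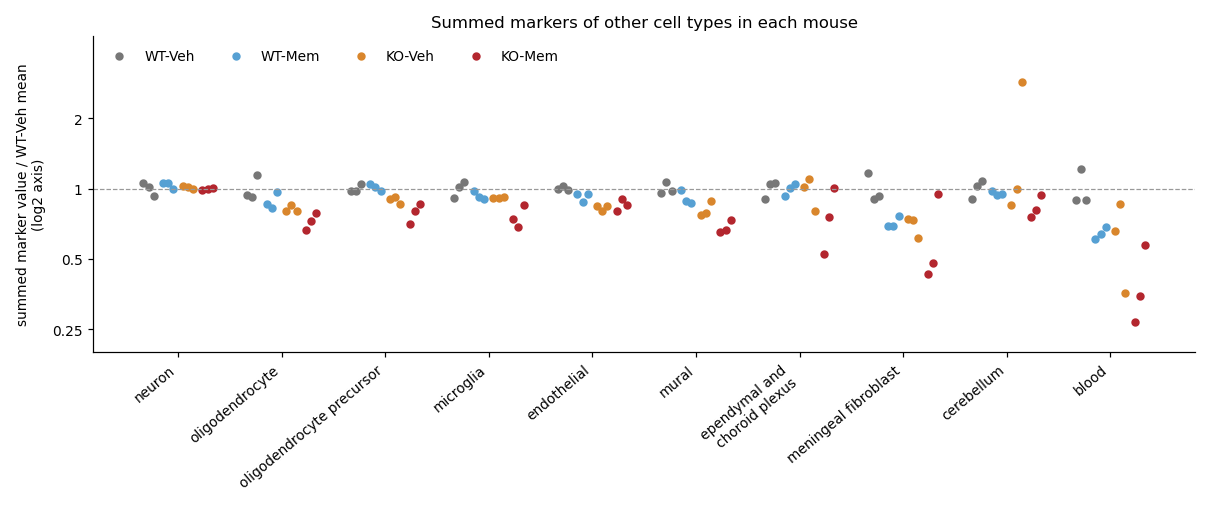
Summed value of the markers of each other cell type (x axis) in each mouse, divided by the WT-Veh mean (y axis, log2 scale), coloured by group. Neuron sums stay near 1 in all mice. Oligodendrocyte, endothelial and blood sums are lower by mean in KO mice within each treatment. Over both treatments, WT and KO mice overlap in each of these sums. Within a treatment, only the endothelial sums under memantine overlap among them. The point far above 1 for the cerebellum is KO-Veh replicate 3.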

How the data were processed

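RNA-Seq of 12 mouse brains, 3 per group, was deposited as a table of signal values, which the authors made from poly-A libraries with Salmon 1.1.0 on GRCm38 and tximport and divided by DESeq2 normalization factors, one column per mouse. The submitters' processing notes name DESeq2 1.26.0 and R 3.6.2. Whole reads could not be recovered, so depth is unknown and no counting intervals are given. The 10 members and all lists were chosen with earlier results of these data known. Symbols and exon lengths came from GENCODE M21 (19295 of 19312 genes matched). Tests used limma 3.58.1 in R 4.3.3 (lmFit, eBayes with trend) on log2(value + 1) for genes whose mean in the fitted mice was 10 or more, with Benjamini-Hochberg adjustment over all genes and a threshold of 0.05, two-sided; fold changes of low genes are understated by the pseudocount. The 7 fits were KO against WT within vehicle and within memantine, memantine against vehicle within KO and within WT (3 mice against 3 each), the interaction, genotype with treatment as a term, and memantine with genotype as a term (12 mice). Scripts were tested on simulated data. Nothing says that mice came from separate litters, so p-values cover the spread between these mice. Named genes were all members, every list gene past the threshold in any fit, and the 2 of each list with the smallest p in each pairwise fit; some of these are not reported here. A planned permutation test of Etnppl relative to the other members is given without a p, since that score combines members chosen with results known. Alternatives were a pseudocount of 5, no filter, a mean of at least 50, quantile normalization, robust limma, a replicate block, all 12 mice in one fit, and leaving out each mouse. Promoter windows came from RefSeq (GRCm38.p6).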

Additional observations from a re-analysis of the deposited data

Results flagged for a closer look

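Slc17a8, the vesicular glutamate transporter VGLUT3, is flagged because its memantine difference had opposite directions in the 2 genotypes without overlap in either. WT mice read 139, 164 and 164 with vehicle and 167, 171 and 177 with memantine (log2 difference 0.141), and KO mice 151, 135 and 145 with vehicle and 103, 127 and 126 with memantine (-0.276). The interaction was -0.418 (SE 0.18, unadjusted p = 0.0396, adjusted p = 0.947 by limma), so it failed the correction over all genes.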

How the results depend on the processing

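Under the alternatives, the Aqp4 and S100b calls over both treatments held in all 18, and the Gja1 call in 9 of 18. The number of members past the threshold in the genotype fit ran from 2 to 5 when 1 mouse was left out, with 5 without KO-Mem replicate 3. It ran from 0 to 1 in Veh-K/W and 0 to 3 in Mem-K/W, and was 2 in Mem-K/W with all 12 mice in one fit. Lists in the genotype fit ran, on leaving out 1 mouse, from 6 to 13 (identity), 1 to 4 (glutamate cycle), 0 to 1 (phosphoethanolamine) and 1 to 5 (reactive). Counts over all genes moved: in Veh-K/W 3 with pseudocount 5, 2 with a mean of 50, 10 with robust limma, 2 with all 12 mice, and 2 to 53 on leaving out 1 mouse (53 without KO-Veh replicate 2); in Mem-K/W 5 without a filter, 20 with robust limma, 636 with all 12 mice, and 2 to 1911 (1911 without KO-Mem replicate 3); in KO-M/V 0 to 97 (97 without KO-Mem replicate 3); in WT-M/V 1 with pseudocount 5 or quantile normalization, 0 with a mean of 50 or all 12 mice, and 1 to 3; in the interaction 0 to 4; in the genotype fit 694 (without KO-Veh replicate 3) to 2683. The cause of these moves was not tested. Values near 0 changed sign. On leaving out 1 mouse, Slc1a2 ran from -0.044 to 0.044 (KO-M/V) and -0.061 to 0.086 (WT-M/V), Slc1a3 from -0.0037 to 0.11 and -0.055 to 0.021, Gjb6 from -0.026 to 0.22 (KO-M/V), Aldh1l1 from -0.014 to 0.057 (WT-M/V), Glul from -0.074 to 0.028 (Veh-K/W), -0.030 to 0.074 (Mem-K/W), -0.0095 to 0.094 (KO-M/V), -0.054 to 0.048 (WT-M/V) and -0.024 to 0.028 (genotype), and the Etnppl interaction from -0.18 to 0.12. Quantile normalization gave 0.00020 for Slc1a2 in Veh-K/W and -0.021 for Glul in WT-M/V. The memantine difference of Etnppl relative to the other members, recomputed with choices added after seeing the data, ran from 0.18 to 0.52 in KO mice.

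The replicate numbers were also fitted as a block. Mice with the same number did not deviate together (18 correlations from -0.33 to 0.22, 1 of them over 0.1), so the numbers are read as names only. With the block, 2 genes were called in Veh-K/W, 4 in Mem-K/W, 1 in WT-M/V and 1825 in the genotype fit, where 3 members passed as without it.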
